A study of Mus musculus with 12 samples.

Results

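The microRNAs miR-199a, miR-214, miR-143 and miR-145 were followed in cardiomyocytes and cultured nonmyocytes of the mouse heart. Every row of the small RNA count table was taken that lies on the precursor's own strand and whose precursor symbol is that of miR-199a, miR-199b, miR-214, miR-143 or miR-145, with all genomic copies and both arms. This gave 10 arms of 5 precursors, out of 850 rows in all, of which 782 lie on the precursor strand. No precursor carries the symbol of miR-199b. A row named by a genomic clone is that gene by its transcript identifier, so it falls outside the rule and is described beside the 10 arms.

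The cells came from the hearts of 3 female mice of the inbred strain FVB/NJ, 12 weeks old and wild type. Cardiomyocytes, the contracting cells, were freed by collagenase perfusion, left to part from smaller cells by gravity, and lysed without culture. Nonmyocytes of those hearts were first grown in dishes to a population of mainly fibroblasts, the connective tissue cells, and the labels give either 2 passages or passage 1. Each fraction gave 3 small RNA libraries and 3 libraries of polyadenylated RNA. Cell type and time in culture differ together between the fractions and cannot be told apart. The labels do not say which heart a library came from, so a p-value reflects only how these libraries vary, in part perhaps for technical reasons.

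A microRNA is cut from a hairpin precursor, either arm of which can be kept as the mature strand, and guides an Argonaute protein to transcripts that pair with its seed, here bases 2 to 8. miR-199a-2 and miR-214 are processed from the long noncoding RNA Dnm3os, which runs antisense to the dynamin gene Dnm3, and they are known from mesenchyme, skeletal development and fibrotic tissue. miR-143 and miR-145 are cut from one primary transcript and are best known from vascular smooth muscle, where serum response factor and its coactivator myocardin drive them.

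The mature strands of the first pair are shown because their seeds set which transcripts they can pair with, and because the 2 copies of miR-199a give identical strands. Seeds are in capitals, and the sequences are those of RefSeq on GRCm38.p6.
miR-199a-5p: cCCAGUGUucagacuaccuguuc
miR-199a-3p: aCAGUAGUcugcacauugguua
miR-214-5p: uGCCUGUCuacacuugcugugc
miR-214-3p: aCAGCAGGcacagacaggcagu
miR-199b-3p has the same sequence as miR-199a-3p. The seeds of miR-199a-3p and miR-214-3p differ at 2 of 7 bases and the whole strands at 14 of 22. Among the mature mouse microRNAs of the RefSeq table miR-761 alone shares the seed of miR-214-3p.

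The precursors are shown with both arms in capitals, since the hairpin around the identical arms is what tells the copies apart.
Mir199a-1: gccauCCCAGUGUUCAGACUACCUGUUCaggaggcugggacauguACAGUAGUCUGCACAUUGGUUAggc
Mir199a-2: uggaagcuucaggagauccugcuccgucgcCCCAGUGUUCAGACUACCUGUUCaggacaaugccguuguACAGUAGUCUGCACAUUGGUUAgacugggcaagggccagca
Mir214: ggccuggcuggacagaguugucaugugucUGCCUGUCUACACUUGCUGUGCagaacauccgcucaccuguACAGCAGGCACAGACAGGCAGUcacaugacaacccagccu
On mm9, the build of the deposited tables, the arms of Mir199a-2 lie at chr1:164147975-164148035 and those of Mir214 at chr1:164153528-164153590, both on the plus strand in 1 exon of Dnm3os and inside the body of Dnm3 on the other strand. The arms of Mir199a-1 lie at chr9:21300942-21301003 on the minus strand, in an intron of the dynamin gene Dnm2, which runs the other way.

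Small RNA totals were 412739, 3062706 and 6311625 counts in cardiomyocyte libraries 1, 2 and 3, and 1255622, 549924 and 83170 counts in nonmyocyte libraries 1, 2 and 3. Levels are CPM, counts relative to a library size that was scaled by the trimmed mean of M values (TMM). A count of 3 corresponds to between 0.928 and 12.06 CPM in cardiomyocyte libraries and between 1.48 and 20.4 CPM in nonmyocyte libraries. Log2 fold changes are given as cardiomyocytes minus nonmyocytes, each with its standard error after the ± sign. Polyadenylated RNA held the defining genes of the labelled cells, since the 5 cardiomyocyte markers summed to between 86600 and 109000 CPM in cardiomyocytes and to between 595 and 787 CPM in nonmyocytes. The 7 fibroblast markers summed to between 300 and 420 CPM in cardiomyocytes and to between 11600 and 13500 CPM in nonmyocytes. Nonmyocyte library 3, the shallowest, stood apart in the small RNA: the cardiomyocyte microRNA miR-499-5p was at 61.1 CPM there, from 9 counts, against 1.48 and 1.92 CPM in nonmyocyte libraries 1 and 2.

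All 6 arms of miR-199a and miR-214 were lower in cardiomyocytes, by between 2.10 and 3.32 on the log2 scale. The 4 arms of miR-143 and miR-145 were mixed, with 1 lower and 3 not called. The 10 arms passed the filter on low counts and were tested with 343 arms in all, and 7 of 10 were called lower and 0 higher at an adjusted p under 0.05 in edgeR's quasi-likelihood test. None was higher at an unadjusted p under 0.05 either, or with DESeq2 or limma voom. Of all 343 tested arms 52.8% were called, 33.8% lower and 19.0% higher. The share of these arms whose levels do not overlap between the fractions is not given here. The median log2 fold change was -2.86 for the 6 arms of miR-199a and miR-214, -1.21 for the 4 arms of miR-143 and miR-145, and -0.23 for all tested arms. Without nonmyocyte library 3, 6 of the 10 arms were called lower and 0 higher, beside 111 lower and 93 higher of all 382 arms then tested.

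**Figure D1:**
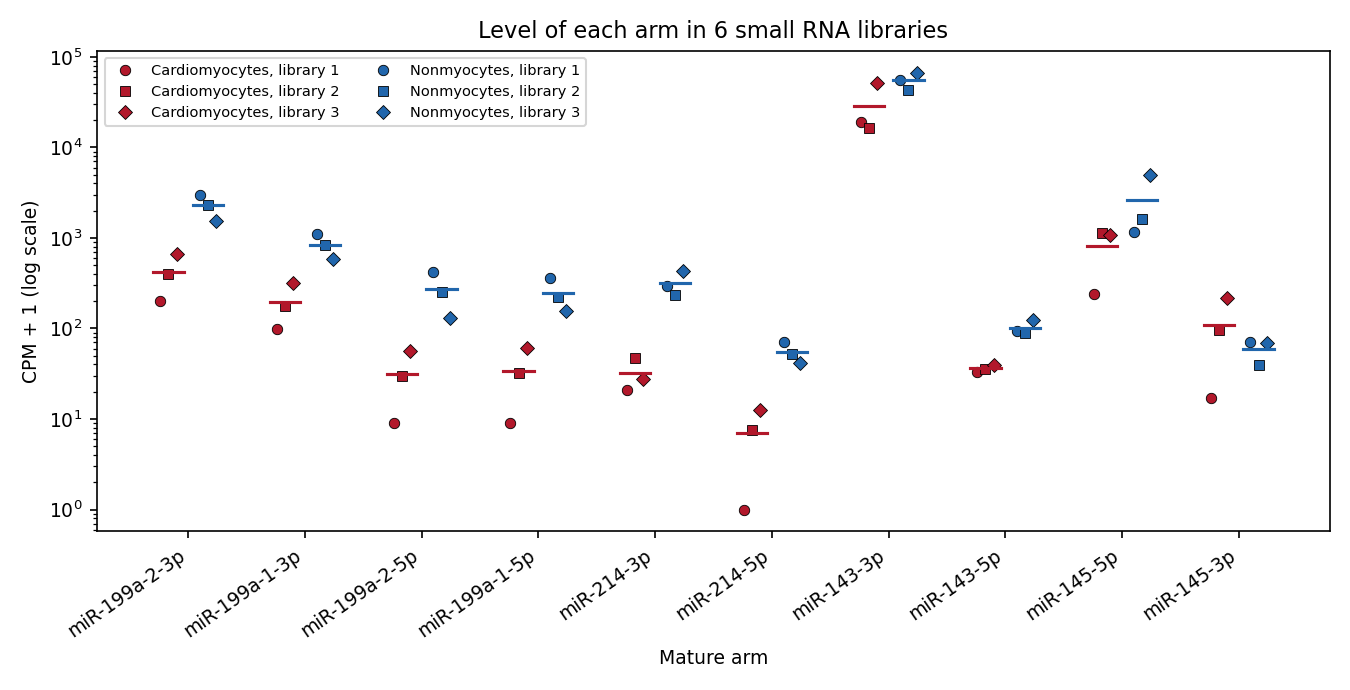
Level of the 10 arms in CPM + 1 on a log scale, with cardiomyocyte libraries in red left of nonmyocyte libraries in blue, the library number as the marker shape, and a line at each group's mean. The 6 arms of miR-199a and miR-214 do not overlap between the fractions, while miR-143-3p and miR-145-3p do. Of all 343 tested arms 52.8% were called, and the share without overlap is not given here.

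miR-199a-3p was the most abundant strand of the first pair. Its Mir199a-2 row, at chr1:164148014-164148035, was at 201, 398.6 and 667.2 CPM in cardiomyocyte libraries 1 to 3, against 3004, 2322 and 1534 CPM in nonmyocyte libraries 1 to 3. The Mir199a-1 row, at chr9:21300942-21300963, was at 96.5, 175 and 313 CPM in cardiomyocytes and at 1115, 829.8 and 577 CPM in nonmyocytes. Both rows kept the fractions apart, with the lowest nonmyocyte value in library 3 and the lowest cardiomyocyte value in library 1. The log2 fold change was -2.43 ± 0.58 for the Mir199a-2 row (adjusted p = 0.0116, edgeR quasi-likelihood) and -2.10 ± 0.59 for the Mir199a-1 row (adjusted p = 0.0208, edgeR quasi-likelihood). By mean CPM the Mir199a-2 row ranked 99 of 850 rows in cardiomyocytes and 40 in nonmyocytes.

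The 5p strand followed at a lower level. Its Mir199a-2 row, at chr1:164147975-164147997, was at 8.04, 29.2 and 55.0 CPM in cardiomyocytes and at 424, 253 and 129 CPM in nonmyocytes, a log2 fold change of -3.06 ± 0.80 (adjusted p = 0.0152, edgeR quasi-likelihood). From Mir199a-1, at chr9:21300981-21301003, the 5p strand was at 8.04, 30.8 and 60.3 CPM in cardiomyocytes and at 359, 220.4 and 156 CPM in nonmyocytes, a log2 fold change of -2.83 ± 0.76 (adjusted p = 0.0176, edgeR quasi-likelihood). The value of 8.04 CPM in cardiomyocyte library 1 rests on 2 counts for either row. With the copies summed, miR-199a-3p differed by -2.29 ± 0.56 and miR-199a-5p by -2.93 ± 0.79 on the log2 scale, and edgeR's quasi-likelihood test gave adjusted p = 0.0119 and 0.0171.

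miR-199b has a row for each arm, both named by the clone. Its 3p arm was lower in cardiomyocytes. This arm, at chr2:32174044-32174065 on the plus strand of mm9 and in an intron of the dynamin gene Dnm1 on the opposite strand, was at 40.2, 35.2 and 49.2 CPM in cardiomyocytes and at 330.0, 321 and 163 CPM in nonmyocytes. The log2 fold change was -2.71 ± 0.53 (adjusted p = 0.00481, edgeR quasi-likelihood). The 5p arm had 0, 9 and 37 counts in cardiomyocytes and 28, 3 and 0 counts in nonmyocytes, which overlap in CPM, and it did not pass the filter on low counts. Since 3 genes encode the same 3p strand, the split of reads among their rows is set by the authors' counting, which is not stated, and the level of each single row is uncertain. Of the counts on the 3 rows together, Mir199a-2 held between 59.5% and 65.5% in cardiomyocytes and between 66.9% and 67.5% in nonmyocytes.

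miR-214-3p was lower in cardiomyocytes without overlap. It lies at chr1:164153569-164153590 and was at 20.1, 45.7 and 26.9 CPM in cardiomyocytes, against 290.0, 232 and 428 CPM in nonmyocytes. The log2 fold change was -3.32 ± 0.58 (adjusted p = 0.00266, edgeR quasi-likelihood), and this arm kept its call when any one library was left out, with log2 fold changes between -3.69 and -2.74. miR-214-5p, at chr1:164153528-164153549, was at 0, 6.61 and 11.4 CPM in cardiomyocytes and at 69.6, 51.7 and 40.7 CPM in nonmyocytes. Its log2 fold change was -2.89 ± 0.75 (adjusted p = 0.0152, edgeR quasi-likelihood). The count of 0 in cardiomyocyte library 1 allows a level of up to 12.06 CPM, the value of 3 counts there.

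The other 5 calls of the pair were less stable. With all libraries 7 of 10 arms were called lower, beside 116 of all 343 tested arms. Leaving out cardiomyocyte library 2 left 1 of 10 arms called lower, beside 78 of 335 tested. Leaving out nonmyocyte library 1 left 1, beside 78 of 320, and leaving out nonmyocyte library 2 left 2, beside 93 of 379. In edgeR's quasi-likelihood test the adjusted p of the 4 miR-199a rows was then between 0.0562 and 0.0857 without cardiomyocyte library 2, and between 0.0613 and 0.168 without nonmyocyte library 1. Without nonmyocyte library 2 it was between 0.0513 and 0.0754 for 3 of these rows, and the Mir199a-2 row of the 3p strand kept its call. miR-214-5p had 0.0729, 0.0628 and 0.061 in the same order of libraries left out. All 5 of these arms stayed lower in cardiomyocytes with any one of the 6 libraries left out, with log2 fold changes between -3.61 and -1.31.

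miR-143-3p was the most abundant of the 10 arms in both fractions, and its difference did not pass the test. It lies at chr18:61808853-61808873, on the minus strand in no annotated exon, and was at 19070, 16320 and 51330 CPM in cardiomyocytes and at 56160, 42970 and 67080 CPM in nonmyocytes. Cardiomyocyte library 3 lies inside the nonmyocyte range, and the other cardiomyocyte libraries lie below it. The difference was -0.94 ± 0.62 on the log2 scale with a 95% interval from -2.39 to 0.51 (adjusted p = 0.242, edgeR quasi-likelihood). By mean CPM this arm ranked 9 of 850 rows in cardiomyocytes and 2 in nonmyocytes. Scaled by library totals in place of TMM, the arm was called lower at -2.62 (adjusted p = 0.00662, edgeR quasi-likelihood).

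miR-143-5p, the minor arm, was at 32.2, 34.7 and 38.7 CPM in cardiomyocytes and at 91.7, 87.2 and 122 CPM in nonmyocytes. It lies at chr18:61808887-61808907, and its groups did not overlap. On the log2 scale the difference was -1.49 ± 0.50 (adjusted p = 0.0385, edgeR quasi-likelihood). The call was lost with any one library left out except cardiomyocyte library 1, with edgeR quasi-likelihood adjusted p of 0.118 and 0.0805 without cardiomyocyte libraries 2 and 3, and of 0.3, 0.105 and 0.181 without nonmyocyte libraries 1, 2 and 3. It was also lost with no filter on low counts (adjusted p = 0.134, edgeR quasi-likelihood).

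The arms of miR-145 went opposite ways and neither was called. miR-145-5p, at chr18:61807520-61807542, was at 237, 1119 and 1087 CPM in cardiomyocytes and at 1157, 1619 and 5009 CPM in nonmyocytes. The groups lie side by side without overlap, and nonmyocyte library 3 is far above the rest. The log2 fold change was -1.67 ± 0.79 with a 95% interval from -3.52 to 0.19 (adjusted p = 0.12, edgeR quasi-likelihood). Without nonmyocyte library 3 it was -0.49, while with DESeq2 (adjusted p = 0.0388), upper quartiles (adjusted p = 0.0355, edgeR quasi-likelihood) and library totals (adjusted p = 0.00958, edgeR quasi-likelihood) the arm was called lower.

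miR-145-3p, at chr18:61807484-61807504, was at 16.1, 94.7 and 218 CPM in cardiomyocytes and at 69.6, 38.3 and 67.9 CPM in nonmyocytes. Cardiomyocyte libraries 2 and 3 lie above the nonmyocyte range and library 1 below it. This gave a log2 fold change of 0.94 ± 0.86 with a 95% interval from -1.06 to 2.95 (adjusted p = 0.398, edgeR quasi-likelihood). It changed sign to -0.74 with library totals (adjusted p = 0.459, edgeR quasi-likelihood). Without the shallowest library of each fraction, cardiomyocyte library 1 and nonmyocyte library 3, an alternative chosen after seeing the data, it was 1.53 (adjusted p = 0.015, edgeR quasi-likelihood).

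**Figure D2:**
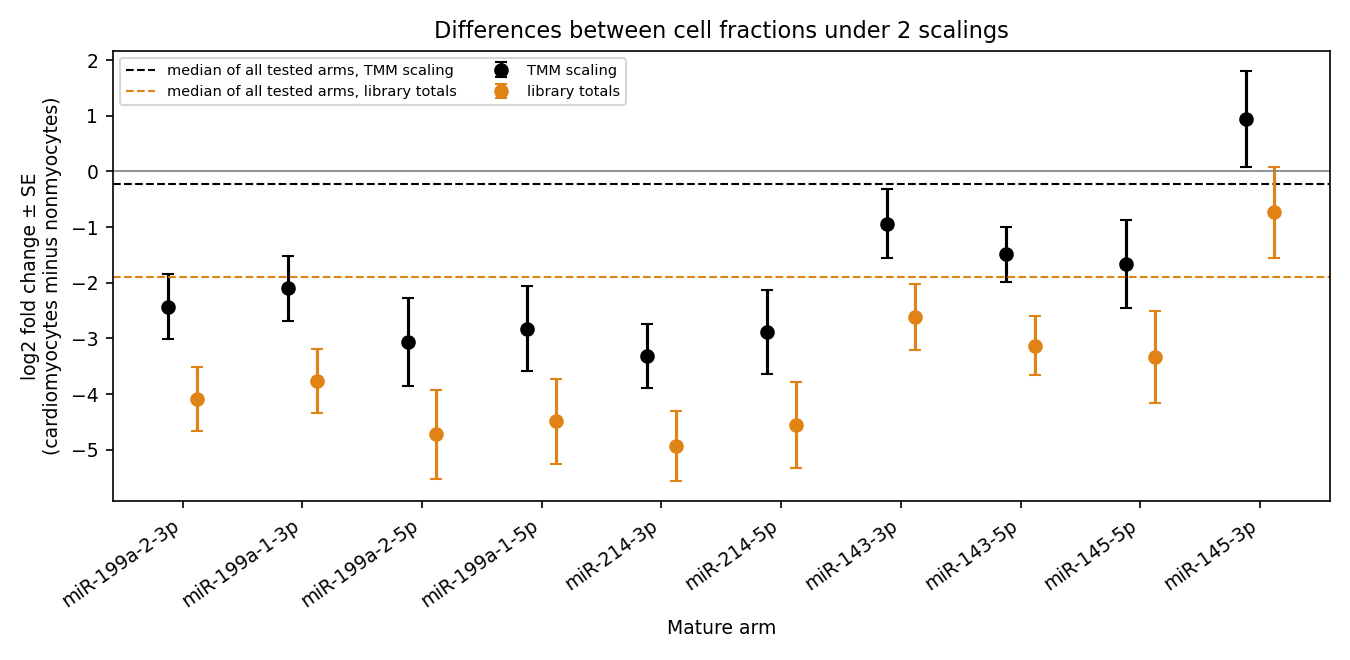
Log2 fold change of the 10 arms, cardiomyocytes minus nonmyocytes, with its SE, under TMM scaling (black) and library totals (orange), with dashed lines at the median of all tested arms. With library totals the median of all arms lies at -1.90, against -0.23 with TMM, and the arms move down with it.

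How far the arms differ depends on the scale, since TMM factors were between 0.513 and 0.603 in cardiomyocyte libraries and between 1.62 and 1.9 in nonmyocyte libraries. With library totals the median over all tested arms shifted by -1.67 to -1.90. The median of the 6 arms of miR-199a and miR-214 was then -4.52 and that of the 4 arms of miR-143 and miR-145 was -2.87. With library totals 9 of the 10 arms were called lower, beside 62.7% of all tested arms called, 54.5% lower and 8.16% higher.

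As a share of all counts, which is a scaling by the library total, all 4 microRNAs took less of each cardiomyocyte library than of any nonmyocyte library. With library totals the median of all 343 tested arms was already -1.90, and 54.5% were called lower. How many other arms separate the fractions in this way is not given here. miR-143 made up 1.15%, 0.97% and 2.63% of the counts in cardiomyocyte libraries and 9.08%, 8.17% and 11.9% in nonmyocyte libraries. miR-145 averaged 0.0514% ± 0.0314 in cardiomyocytes and 0.471% ± 0.376 in nonmyocytes (SD, n = 3 each). The mean share of miR-143 was 1.58% ± 0.912 in cardiomyocytes and 9.72% ± 1.95 in nonmyocytes (SD, n = 3 each). As a difference of mean log2 shares, cardiomyocytes minus nonmyocytes, this was -2.74, a 6.7-fold lower share by geometric mean. For miR-145 the difference was -3.19, or 9.14-fold lower in cardiomyocytes by geometric mean, and it was -2.46 without cardiomyocyte library 1 and -2.58 without nonmyocyte library 3.

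miR-199a made up 0.0189%, 0.0376% and 0.0562% of the cardiomyocyte counts, against 0.791%, 0.688% and 0.424% of the nonmyocyte counts. For miR-214 the shares were 0.00121%, 0.0031% and 0.00196% in cardiomyocytes and 0.0581%, 0.0538% and 0.083% in nonmyocytes. By geometric mean the share of miR-199a was 18.0-fold and that of miR-214 32.7-fold lower in cardiomyocytes, with differences of mean log2 shares of -4.17 and -5.03. For each of the 4 microRNAs the exact two-sided permutation test of the mean log2 share gave p = 0.1, the smallest that 3 libraries against 3 allow. In cardiomyocyte library 1 the miR-214 share rests on 5 counts, with a 95% Wilson interval from 0.000517% to 0.00284%, which covers counting error only. Together the 10 arms took 1.19%, 1.08% and 2.76% in cardiomyocyte libraries and 10.1%, 9.23% and 13.3% in nonmyocyte libraries. In bulk libraries fewer cells of one type and less microRNA in each cell cannot be told apart.

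**Figure D3:**
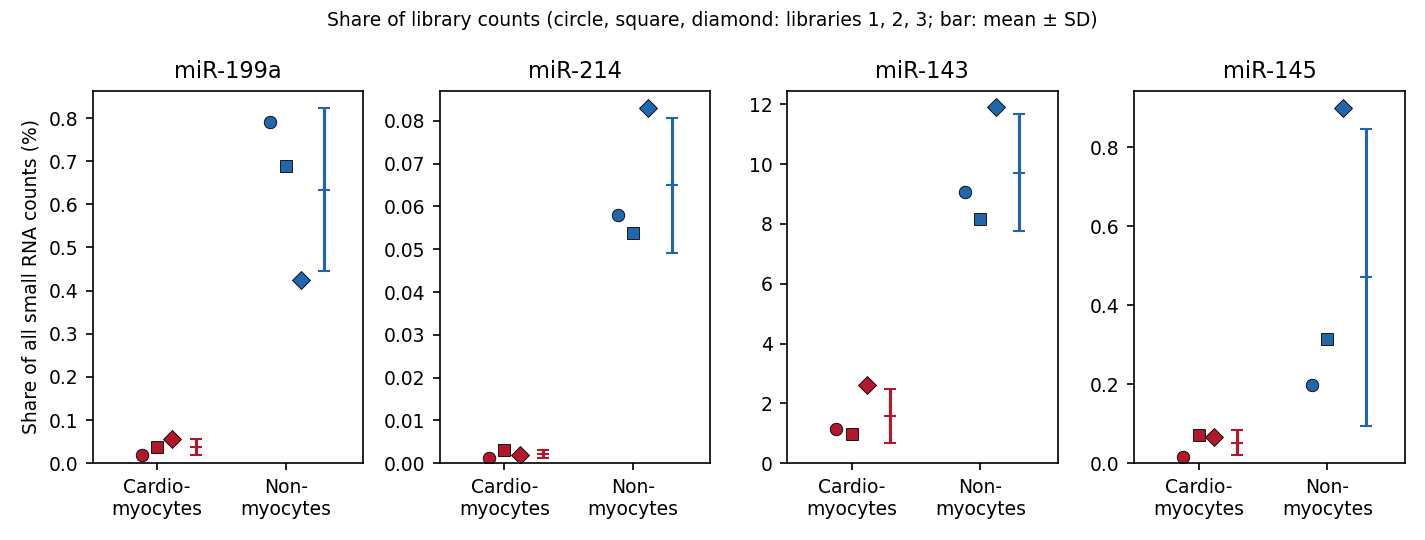
Share of all small RNA counts in percent for each microRNA, one point per library with cardiomyocytes in red and nonmyocytes in blue, and the mean ± SD of 3 libraries beside them. Each axis starts at 0 and has its own range, and in all 4 panels every cardiomyocyte library lies below every nonmyocyte library. With library totals 54.5% of all tested arms were called lower in cardiomyocytes.

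Arm use was compared within each library, where scaling plays no part. In miR-199a the 5p strand held 5.13%, 9.47% and 10.5% of the counts in cardiomyocytes and 16.0%, 13.1% and 11.9% in nonmyocytes, so the 3p strand prevailed in every library and the 2 fractions did not overlap. In miR-145 the 5p strand held 93.7%, 92.2% and 83.3% in cardiomyocytes and 94.3%, 97.7% and 98.7% in nonmyocytes. The 93.7% rests on 59 against 4 counts, and its 95% Wilson interval, from 84.8% to 97.5%, covers the 94.3% of nonmyocyte library 1. By the point values the main arm of miR-145 took a smaller share in all 3 cardiomyocyte libraries. The difference in log2 ratio of 5p to 3p was -1.99, against -0.79 for miR-199a. Both gave p = 0.1 in the exact two-sided permutation test and 0.333 after Benjamini-Hochberg adjustment over the 10 ratios compared.

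The arms of the other microRNAs kept ratios that overlapped between the fractions. miR-143 was almost wholly 3p, with 5p at 0.168%, 0.212% and 0.0752% in cardiomyocytes and at 0.163%, 0.203% and 0.182% in nonmyocytes (exact permutation test, p = 0.8). In miR-214 the 5p strand held 0%, 12.6% and 29.8% in cardiomyocytes and 19.3%, 18.2% and 8.7% in nonmyocytes (exact permutation test, p = 1.0). The 0% rests on 5 counts, and its 95% Wilson interval reaches 43.4%.

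The 2 copies of miR-199a were also set against each other. Mir199a-1 held 32.4%, 30.5% and 31.9% of the miR-199a-3p counts in cardiomyocytes and 27.1%, 26.3% and 27.3% in nonmyocytes, without overlap (exact permutation test, p = 0.1, adjusted 0.333). Of the 5p counts it held 2 of 4, 51.4% and 52.3% in cardiomyocytes and 45.8%, 46.6% and 54.8% in nonmyocytes, which overlap (exact permutation test, p = 0.4). Because the mature strands are identical, reads that cover the strand alone could have come from either copy.

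**Figure D4:**
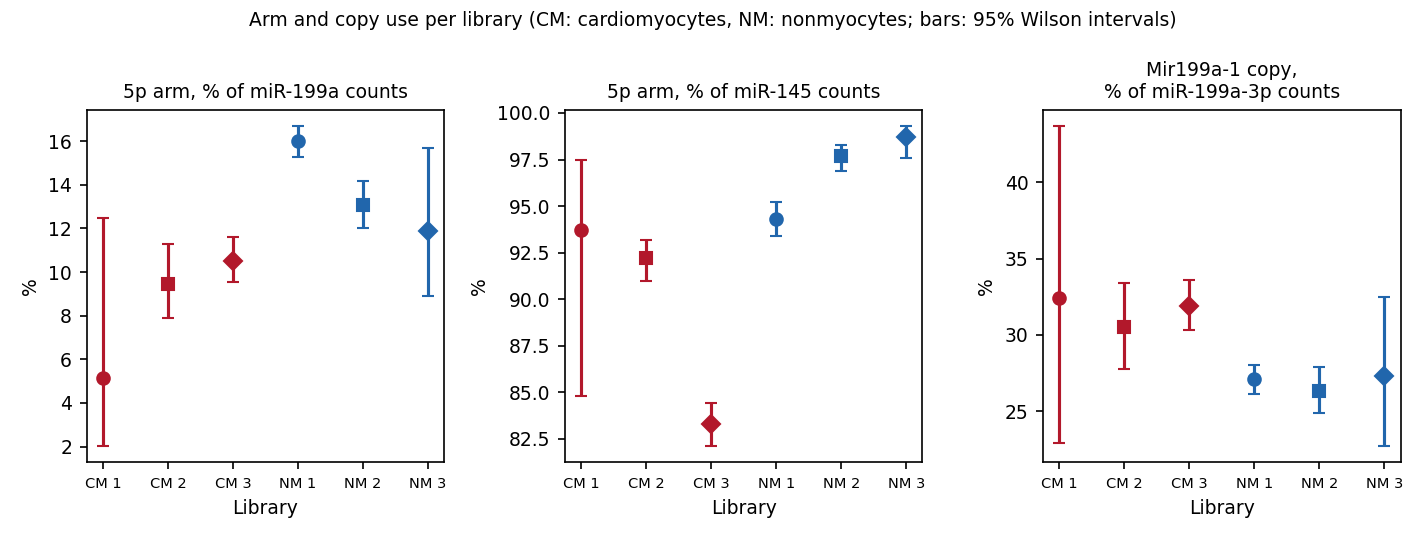
Share of counts per library in percent with 95% Wilson intervals, for the 5p arm of miR-199a, the 5p arm of miR-145 and the Mir199a-1 copy of miR-199a-3p, with cardiomyocyte libraries (CM) left of nonmyocyte libraries (NM). The axes do not start at 0, and in each panel the points of the 2 fractions do not overlap although some intervals do. Of the 10 ratios compared, only those without overlap are shown.

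Members of one transcript were compared as a ratio of summed counts, with 0.5 added to each side. The ratio of miR-199a to miR-214 was 14.3, 12.1 and 28.5 in cardiomyocytes and 13.6, 12.8 and 5.09 in nonmyocytes (exact permutation test, p = 0.4). That of miR-143 to miR-145 was 74.9, 13.5 and 39.4 in cardiomyocytes and 45.9, 26.0 and 13.2 in nonmyocytes (exact permutation test, p = 0.7). The groups overlapped for both ratios. miR-199a includes reads of Mir199a-1, which lies on another chromosome than miR-214.

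The tested arms whose level over the 6 libraries was most like that of the Mir199a-2 row of miR-199a-3p, by Pearson's r of log2(CPM + 1), were miR-467c-5p (r = 0.986), miR-130a-5p (0.984), miR-434-5p (0.983), miR-21-3p (0.976) and miR-221-3p (0.971). All were measured in the same 6 libraries and had a lower mean in cardiomyocytes, and that difference was not called for miR-221-3p (adjusted p = 0.082, edgeR quasi-likelihood). An r over both fractions includes the difference between them. In cardiomyocytes miR-467c-5p and miR-130a-5p averaged 0.779 and 0.699 CPM, below 0.928 CPM, the lowest level of 3 counts in that fraction. For miR-143-3p they were miR-872-5p (0.913), miR-19b-1-3p (0.894), miR-21-3p (0.89), miR-152-5p (0.89) and miR-99a-3p (0.884). miR-434-5p of the first list averaged 4.0 ± 3.5 CPM in cardiomyocytes and 457 ± 213 CPM in nonmyocytes (SD, n = 3 each), and miR-21-3p, named in both lists, averaged 4.57 ± 6.54 CPM in cardiomyocytes and 93.0 ± 10.7 CPM in nonmyocytes.

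Polyadenylated RNA over the precursors was read next. Dnm3os was listed at 0 in all 6 libraries, and every base of its exon is shared with other genes of that annotation, so its level is uncertain. Dnm3, on the other strand, averaged 3.48 ± 0.744 CPM in cardiomyocytes and 2.76 ± 0.981 CPM in nonmyocytes (SD, n = 3 each) and was not called. Dnm2, opposite Mir199a-1, was at 133, 159 and 136 CPM in cardiomyocytes and at 242, 198 and 218 CPM in nonmyocytes, a log2 fold change of -0.62 ± 0.16 (adjusted p = 0.00406, edgeR quasi-likelihood). Dnm1, opposite Mir199b, was at 4.06 ± 2.02 CPM in cardiomyocytes and 10.1 ± 0.985 CPM in nonmyocytes (SD, n = 3 each), a log2 fold change of -1.39 ± 0.38 (adjusted p = 0.0063, edgeR quasi-likelihood). These libraries do not keep the strand, so reads of a gene and of its antisense partner cannot be told apart.

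The start region of Dnm3os is shown because Mir199a-2 and Mir214 lie in this transcript and the arms of both were lower in cardiomyocytes. Within a fraction their levels did not run in parallel. In nonmyocyte library 3 the 3p arm of Mir199a-2 was lowest of its fraction, at 1534 CPM, and that of Mir214 highest, at 428 CPM. The window of 300 bases is chr1:162217373-162217672 on the plus strand of GRCm38.p6 (RefSeq), with CANNTG matches, the E-box bound by basic helix-loop-helix factors such as Twist1, and a CArG box, the element bound by serum response factor, in capitals.
Dnm3os: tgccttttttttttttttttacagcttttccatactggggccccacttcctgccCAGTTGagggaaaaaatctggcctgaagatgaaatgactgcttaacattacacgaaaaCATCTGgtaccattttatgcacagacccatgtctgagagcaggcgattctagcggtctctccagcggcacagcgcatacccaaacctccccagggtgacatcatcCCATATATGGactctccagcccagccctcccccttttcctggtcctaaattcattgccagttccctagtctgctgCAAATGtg
Both strands were searched, and the matches do not overlap. The window holds 3 CANNTG matches and 1 CArG box. Of the 32851 promoter windows of this length, 72.3% hold at least 1 CANNTG match and 1.63% a CArG box. The share of windows with 3 or more CANNTG matches is not given here. A match is a description of the letters, not a bound site.

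No gene of the deposited annotation covers Mir143 or Mir145. The nearest on their strand, the noncoding n343866, lies 760 bases from Mir143 and had 2, 0 and 8 counts in cardiomyocytes and 1, 10 and 12 counts in nonmyocytes, too few to be tested. On the other strand n267831, 358 bases from Mir145, averaged 4.73 ± 1.5 CPM in cardiomyocytes and 7.55 ± 1.33 CPM in nonmyocytes (SD, n = 3 each) and was not called (adjusted p = 0.116, edgeR quasi-likelihood). A further noncoding gene on their strand, n267654 at chr18:61810627-61825191, ends 1720 bases from Mir143. All 3 fall outside the rule for named genes and are given after their values were seen. n267654 was at 2.91, 0.673 and 1.65 CPM in cardiomyocytes and at 9.26, 8.5 and 7.22 CPM in nonmyocytes. It differed by -2.40 ± 0.49 on the log2 scale (adjusted p = 0.00082, edgeR quasi-likelihood).

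Factors known to act on these loci were read in the polyadenylated RNA, as were reported targets. Of 59 distinct genes of the lists 58 were tested, and 18 were higher in cardiomyocytes, 30 lower and 10 not called. Over all 14734 tested genes 63.7% were called, 31.6% higher and 32.1% lower. Among the 16 regulators 5 were higher and 10 lower, with a median log2 fold change of -0.85, against -0.02 for all tested genes.

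The regulators split between the fractions, and within the Notch pathway and among the coactivators of serum response factor genes lay on both sides. Twist2, a basic helix-loop-helix factor of mesenchyme, was at 0, 0.414 and 0.0485 CPM in cardiomyocytes and at 8.43, 5.51 and 4.5 CPM in nonmyocytes, a log2 fold change of -4.93 ± 0.73 (adjusted p = 5.92e-05, edgeR quasi-likelihood). Its relative Twist1, a known activator of Dnm3os that was singled out after its values were seen, was at 0.775, 0.984 and 0.339 CPM in cardiomyocytes and at 20.8, 16.9 and 17.2 CPM in nonmyocytes. The Notch ligand Jag1 averaged 12.7 ± 3.49 CPM in cardiomyocytes and 220 ± 31.6 CPM in nonmyocytes (SD, n = 3 each). The other lower genes, given here so that the list is complete, were the Notch receptors Notch2 (-0.87 ± 0.18) and Notch3 (-1.33 ± 0.18), their nuclear partner Rbpj (-2.37 ± 0.53), the coactivator of serum response factor Mkl1 (-3.03 ± 0.20), the growth factor gene Tgfb1 (-0.64 ± 0.20) and its signal carriers Smad2 (-1.24 ± 0.28) and Smad3 (-0.83 ± 0.18), all as log2 fold changes.

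The 5 regulators that were higher in cardiomyocytes included both serum response factor and myocardin. Myocd, which encodes myocardin, was at 107, 164 and 136 CPM in cardiomyocytes and at 1.87, 2.42 and 2.41 CPM in nonmyocytes, a log2 fold change of 5.93 ± 0.25 (adjusted p = 4.31e-10, edgeR quasi-likelihood). Srf, the serum response factor, averaged 274 ± 32.7 CPM in cardiomyocytes and 113 ± 30.3 CPM in nonmyocytes (SD, n = 3 each), 1.28 ± 0.20 on the log2 scale. The cardiac homeobox factor Nkx2-5 averaged 207 ± 42.4 CPM in cardiomyocytes and 5.09 ± 1.27 CPM in nonmyocytes (SD, n = 3 each). Notch1, a Notch receptor, was higher in cardiomyocytes by 0.87 ± 0.20 and Mkl2, a relative of Mkl1, by 0.50 ± 0.16 on the log2 scale. With library totals, which shift the median of all genes by -0.68, Notch1 was no longer called (0.18, edgeR quasi-likelihood adjusted p = 0.364) and Mkl2 changed sign (-0.18, edgeR quasi-likelihood adjusted p = 0.338).

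Reported targets of miR-199a did not move one way. Of 11 genes 6 were higher in cardiomyocytes, 4 lower and 1 not called, with a median log2 fold change of 1.07. Among all tested genes 31.6% were higher and 32.1% lower. Hopx, a homeodomain-only factor of heart muscle, was higher at 180 ± 56.0 CPM in cardiomyocytes, against 1.31 ± 0.433 CPM in nonmyocytes (SD, n = 3 each), with 26.4% of its exon sequence shared with other genes. Clic5, an intracellular chloride channel protein, averaged 375 ± 58.8 CPM in cardiomyocytes and 2.82 ± 0.327 CPM in nonmyocytes (SD, n = 3 each). The kinase gene Mtor was higher by 1.07 ± 0.19. The 4 lower genes were the collagen receptor Ddr1 (-1.83 ± 0.18), the hypoxia factor Hif1a (-1.35 ± 0.28), the growth factor receptor Met (-0.89 ± 0.31) and the caveolin Cav1 (-0.72 ± 0.30), all as log2 fold changes. The call of Cav1 (adjusted p = 0.0487, edgeR quasi-likelihood) was lost without cardiomyocyte library 1 (0.0758) or 2 (0.0584) and without nonmyocyte library 2 (0.121) or 3 (0.158). That of Met (adjusted p = 0.0234, edgeR quasi-likelihood) was lost without cardiomyocyte library 3 (0.0704) and without nonmyocyte library 2 (0.0578) or 3 (0.121).

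Among 11 reported targets of miR-214, 3 were higher in cardiomyocytes, 2 lower and 6 not called, with a median log2 fold change of 0.29. The shares over all tested genes were 31.6% higher and 32.1% lower. The sodium-calcium exchanger Slc8a1 averaged 512 ± 144 CPM in cardiomyocytes and 18.8 ± 0.536 CPM in nonmyocytes (SD, n = 3 each). Ppif, the mitochondrial cyclophilin D, averaged 362 ± 20.9 CPM in cardiomyocytes and 14.0 ± 1.33 CPM in nonmyocytes (SD, n = 3 each). Camk2d, a calcium-calmodulin kinase that is also on the miR-145 list, was higher by 1.94 ± 0.21 on the log2 scale. All 3 are genes of calcium handling or cell death in heart muscle, and 56.9%, 42.3% and 43.2% of their exon sequence is shared with other genes. The 2 lower genes were Ezh2, a histone methyltransferase (-1.82 ± 0.36), and Sufu, an inhibitor of Hedgehog signalling (-0.60 ± 0.21). Sufu (adjusted p = 0.0267, edgeR quasi-likelihood) lost its call without cardiomyocyte library 1 (0.0569) or 3 (0.0645) and without nonmyocyte library 2 (0.0796). Ctnnb1, which encodes beta-catenin, was at 368 ± 87.3 CPM in cardiomyocytes and 427 ± 75.6 CPM in nonmyocytes (SD, n = 3 each) and was not called.

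Of 7 reported targets of miR-143, 1 was higher in cardiomyocytes, 5 were lower and 1 was not called, with a median log2 fold change of -0.52. Beside this, 31.6% of all tested genes were higher and 32.1% lower. The hexokinase gene Hk2 was at 881, 1160 and 1120 CPM in cardiomyocytes and at 95.2, 89.4 and 92.0 CPM in nonmyocytes, a log2 fold change of 3.51 ± 0.18 (adjusted p = 2.2e-09, edgeR quasi-likelihood). The matrix proteoglycan Vcan was at 1.94, 2.28 and 3.1 CPM in cardiomyocytes and at 57.3, 86.6 and 84.6 CPM in nonmyocytes, a log2 fold change of -4.90 ± 0.27 (adjusted p = 4.62e-09, edgeR quasi-likelihood). Marcks, a kinase C substrate at the membrane, fell to 7.21 ± 3.18 CPM in cardiomyocytes, against 79.4 ± 17.3 CPM in nonmyocytes (SD, n = 3 each). The small GTPase gene Hras was lower by a log2 fold change of -0.46 ± 0.15 (adjusted p = 0.0195, edgeR quasi-likelihood), and that call was lost without any one of 5 libraries, cardiomyocyte 2 (0.0515) or 3 (0.121) and nonmyocyte 1 (0.102), 2 (0.113) or 3 (0.0572).

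Of 13 reported targets of miR-145, 5 were higher in cardiomyocytes, 7 lower and 1 not called, with a median log2 fold change of -1.06. Over all tested genes the shares were 31.6% higher and 32.1% lower. Besides Myocd and Camk2d the higher genes were the cofilin phosphatase Ssh2 (3.31 ± 0.17), the angiotensin-converting enzyme Ace (2.23 ± 0.29) and the insulin receptor substrate Irs1 (1.46 ± 0.18), and Irs1 shares 43.6% of its exon sequence with other genes. Fscn1, an actin-bundling protein, was at 27.7, 74.3 and 70.9 CPM in cardiomyocytes and at 1080, 1070 and 1120 CPM in nonmyocytes, a log2 fold change of -4.22 ± 0.31 (adjusted p = 8.22e-08, edgeR quasi-likelihood). Klf4, a factor that represses smooth muscle genes, was at 54.9 ± 1.1 CPM in cardiomyocytes and 120 ± 33.3 CPM in nonmyocytes (SD, n = 3 each), a log2 fold change of -1.13 ± 0.20. Fscn1 and Klf4 are among the 7 genes lower in cardiomyocytes, and 5 of the list went the other way. The share of miR-145 was higher in nonmyocytes. With TMM scaling, which the gene levels use, miR-145-5p was not called (adjusted p = 0.12, edgeR quasi-likelihood). A link between the level of miR-145 and its targets was not tested.

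**Figure D5:**
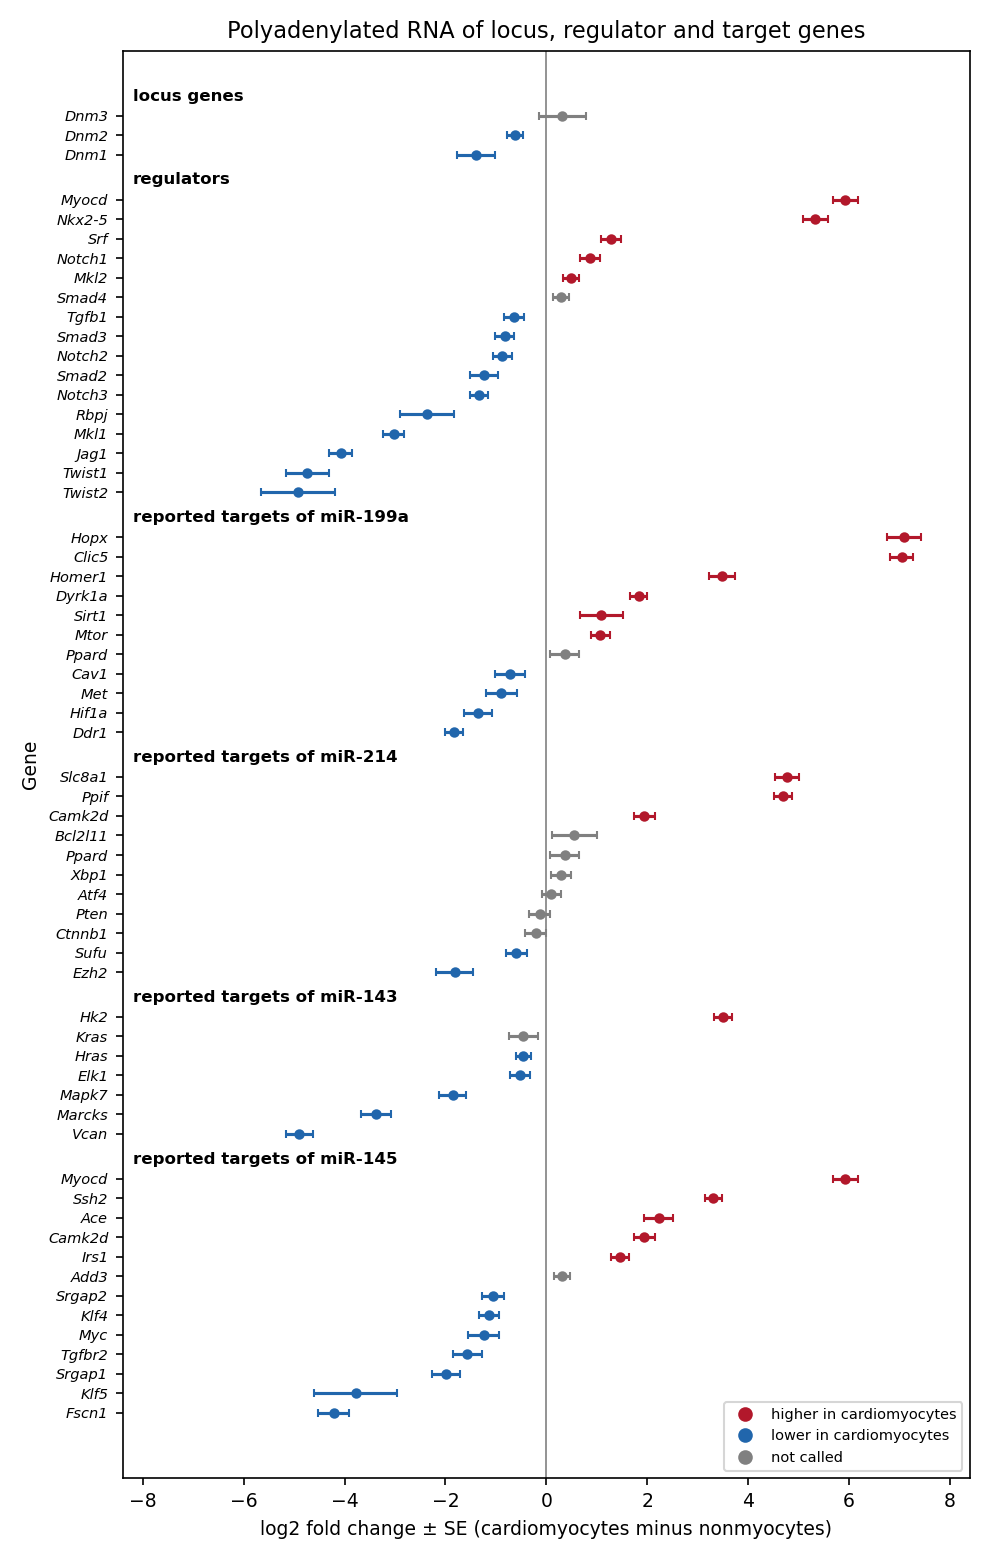
Log2 fold change of the tested locus, regulator and target genes in polyadenylated RNA, cardiomyocytes minus nonmyocytes, with its SE, in red where higher in cardiomyocytes, in blue where lower and in grey where not called. Each target list spreads to both sides of 0. Higher and lower in cardiomyocytes were 6 and 4 of 11 miR-199a targets and 3 and 2 of 11 miR-214 targets. The same counts were 1 and 5 of 7 miR-143 targets and 5 and 7 of 13 miR-145 targets. Among all 14734 tested genes 31.6% were higher and 32.1% lower.

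Markers of other cells did not all go one way between the fractions. The 7 smooth muscle markers summed to between 772 and 805 CPM in cardiomyocytes and to between 6470 and 8120 CPM in nonmyocytes, with 5 lower in cardiomyocytes, 1 higher and 1 not called. Acta2, the smooth muscle actin that cultured fibroblasts also make, was at 360 ± 42.8 CPM in cardiomyocytes and 6360 ± 745 CPM in nonmyocytes (SD, n = 3 each), where it supplied most of that sum, and Smtn was the gene higher in cardiomyocytes. Tagln, another of these 7 genes, shares 66.1% of its exon sequence with other genes. The 6 pericyte markers summed to between 390 and 817 CPM in cardiomyocytes and to between 602 and 693 CPM in nonmyocytes, with 4 higher (Rgs5, Cspg4, Kcnj8 and Abcc9) and 2 lower (Notch3 and Pdgfrb). Abcc9 was the largest part of the cardiomyocyte sum, at 337 ± 135 CPM (SD, n = 3), and shares 48.3% of its exon sequence with other genes. Of the 5 endothelial markers 4 were tested and all 4 were higher, with a sum between 320 and 706 CPM in cardiomyocytes and between 52.4 and 62.4 CPM in nonmyocytes, while Pecam1, which shares 81.1% of its exon sequence with other genes, was at or near 0 throughout. The 5 macrophage markers, of which 2 were higher and 2 lower, summed to between 27.6 and 35.7 CPM in cardiomyocytes and to between 59.3 and 71.7 CPM in nonmyocytes. Their part in the levels of the 4 microRNAs was not tested.

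The endothelial microRNA miR-126-3p was at 1230, 2810 and 8520 CPM in cardiomyocytes and at 150, 134 and 692 CPM in nonmyocytes. It was highest in cardiomyocyte library 3, which also held the highest miR-143-3p of its fraction, and nonmyocyte library 3 was the highest of the other fraction in both. From cardiomyocyte library 1 to 2 miR-126-3p rose, while miR-143-3p went from 19070 to 16320 CPM. The cardiomyocyte microRNA miR-499-5p was highest in library 3 of each fraction as well. It was at 68.3, 520 and 1500 CPM in cardiomyocytes and at 1.48, 1.92 and 61.1 CPM in nonmyocytes. The blood microRNA miR-451-5p was at 281, 70.5 and 30.3 CPM in cardiomyocytes and at 8.88, 5.75 and 197 CPM in nonmyocytes. It was not called (adjusted p = 0.588, edgeR quasi-likelihood). Another blood microRNA, miR-223-3p, was at 8.04, 21.5 and 29.1 CPM in cardiomyocytes and at 1.48, 0 and 6.79 CPM in nonmyocytes. This arm was called higher in cardiomyocytes (adjusted p = 0.0131, edgeR quasi-likelihood), with 3, 0 and 1 counts in nonmyocytes. Both arms of the blood microRNA miR-144 and miR-223-5p were not tested. The part of endothelial and blood cells in the levels of miR-143 and miR-145 was not tested.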

How the data were processed

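Raw counts were deposited by the authors, 1 column per library, for mature microRNA arms and for genes of polyadenylated RNA. The submitters' processing notes name TopHat 1.3.0, Bowtie, HTSeq, edgeR and DESeq, without their roles, and build mm9. How reads were assigned to rows is not given in the sources used here. Per the labels, the TruSeq kit was used for small RNA, and the polyadenylated RNA libraries were not strand-specific. Genes and exons come from the deposited annotation of Ensembl and NONCODE genes.

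Counts were filtered with filterByExpr (minimum count 10), scaled with TMM and compared with edgeR 4.0.16 (robust quasi-likelihood test, two-sided) in R 4.3.3. Benjamini-Hochberg adjusted p under 0.05, over all tested rows, was called. Intervals of log2 fold changes are 95% and use the test's degrees of freedom. Count ratios had 0.5 added to each side. Shares and ratios were compared by exact permutation over libraries (scipy 1.17.1). The biological coefficient of variation was 0.639 in small RNA and 0.251 in polyadenylated RNA. The code was tested on simulated data. Figures used matplotlib 3.10.9 in Python 3.11.15.

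Polyadenylated RNA totals were between 5956831 and 26851830 counts in cardiomyocytes and between 8126422 and 10792544 in nonmyocytes. The members and lists were chosen with earlier results of these data known. Lists of reported targets and regulators come from general knowledge, and from each the text names the 3 most abundant genes, the largest fold each way and those against the majority. Alternatives were DESeq2's size factors, library totals, upper quartiles, no filter, DESeq2 1.42.0, limma 3.58.1 voom, a replicate block, summed copies, leaving out the 3 most abundant arms, and leaving out each library.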

Additional observations from a re-analysis of the deposited data

How the results depend on the processing

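With library totals in place of TMM, 28 arms were higher and 187 lower in cardiomyocytes, beside 65 and 116 with TMM, and 7106 genes of polyadenylated RNA were lower, beside 4732. Under it miR-145-3p (Mir145-3p, -0.74), Dnm3 (-0.36) and Mkl2 (-0.18) changed sign. Without the shallowest library of each fraction, chosen after seeing the data, 127 arms and 1 of the 10 members, miR-145-3p, were higher. Leaving out single libraries gave between 29 and 95 arms higher, between 78 and 128 lower, and between 1 and 7 members lower. The log2 difference then lay between -0.60 and 0.52 for miR-214 arm use, between -0.66 and 0.088 for miR-143 arm use, and between -0.12 and 1.11 for the ratio of miR-143 to miR-145. The cause of these changes was not tested, beyond the fewer libraries.

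Leaving 1 library in a fraction out keeps 2, so a lost call also reflects lower power. Summing the copies left 5 of 8 arms lower, beside 108 of all 326 tested arms, and no filter left 6 of 10, beside 141 of 850. A replicate block left 6 of 10 lower, beside 99 of 343 tested arms, with miR-143-5p at -1.50 (edgeR quasi-likelihood, adjusted p = 0.0978). Same-numbered libraries correlated at 0.0437, -0.0988 and 0.245 in small RNA and at 0.162, 0.0504 and 0.1 in polyadenylated RNA. Between different numbers the values lay from -0.407 to 0.372 in small RNA and from -0.16 to 0.0694 in polyadenylated RNA. So few correlations cannot tell whether library numbers pair the samples. Depth limits the arms with few counts, such as the 5p arms of miR-214 and miR-199a, with 0 to 2 counts in cardiomyocyte library 1 and 6 to 23 in nonmyocyte library 3, and miR-145-3p, with 4 and 10.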
